A study of Mus musculus with 24 samples.

Results

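The transcripts of the mitochondrial genome were followed in brain and liver of male C57/BL6 mice of the leptin receptor model. Members were chosen by name alone, as every gene whose symbol begins with mt- in the deposited count files. They were 37 of 55797 gene names: 13 protein genes, 2 ribosomal RNAs (mt-Rnr1 and mt-Rnr2) and 22 transfer RNAs. RNA of 24 libraries was sequenced, 12 per tissue, with 2 libraries for each combination of genotype and drink. The genotypes were db/db, in which the leptin receptor is defective on both alleles, and db/+, which keeps a functional allele. The drinks were water, sucrose and brazzein, a protein with a sweet taste, and the labels give a treatment entry of 16 weeks for all groups. The brain region is not given in the labels. Genotype was read from the sample titles, because for 12 samples a second genotype entry goes against the title. That the share of ribosomal RNA differs between the genotypes in liver was known when this topic was taken up, so that difference is described here without a test.

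The mitochondrial genome is a small circle that is transcribed from both strands into long precursor RNAs. Many of its tRNAs lie between the other genes, and cutting at the tRNAs releases the mature mRNAs and rRNAs. The mRNAs encode subunits of respiratory complexes I, III, IV and V, the rRNAs form the mitochondrial ribosome, and their synthesis and decay depend on nuclear-encoded proteins. Most mitochondrial mRNAs carry short poly(A) tails, whereas mature tRNAs end in CCA. The libraries here were made from poly(A)-selected RNA, with a kit that does not record the strand.

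Totals were 58287665 to 77772849 estimated counts in brain libraries and 60384569 to 79385804 in liver libraries. The summed levels of 5 neuron and 3 oligodendrocyte markers in liver were at most 9.83 and 3.99 CPM, against at least 5238 and 5054 in brain. The 7 hepatocyte markers summed to 76381 to 105376 CPM in liver, and 4 of them (Apoa1, Cyp2e1, Pck1 and Serpina1a) stayed under 1 CPM in every brain. CPM is the count scaled to library size, here with TMM factors within a tissue. The labels do not say that replicates are separate animals, so p-values measure the spread between libraries. In whole tissue, fewer cells of a type and less RNA per cell cannot be told apart.

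Several member names stood for more than the gene they are called after. The deposited count of a gene equalled its coverage times a length over a read length of 75 bases, so count and coverage together gave the stretch that was counted under each name. For mt-Co2, mt-Co3, mt-Nd3, mt-Nd6, mt-Cytb and both rRNAs that stretch was the gene itself. For mt-Atp8, a subunit of the ATP synthase, it was 841 bases against an annotated 204, the joint extent of mt-Atp8 and mt-Atp6. For mt-Atp6, another subunit of that enzyme, it was 1464 bases against 681, the extent of mt-Atp6 and mt-Co3. The stretch of mt-Nd4l, a complex I subunit, was 1668 against 297 bases and took in mt-Nd4. The stretch of mt-Nd5, also of complex I, was 2329 against 1824 bases and took in mt-Nd6. The stretches of mt-Co1 (1611 bases), mt-Nd1 (1092) and mt-Nd2 (1103) held neighbouring tRNAs. That of mt-Tp, the last gene in the order used here, was 944 bases against an annotated 67. It matched no run of neighbouring genes, and sequence outside genes was not compared. Most of the stretch under mt-Tp thus lies outside the annotated tRNA, and its count is not read as the level of that tRNA. Annotated lengths are from GENCODE release M21 on GRCm38, while the files refer to GRCm39, so lengths and gene order are used and no positions.

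**Figure D1:**
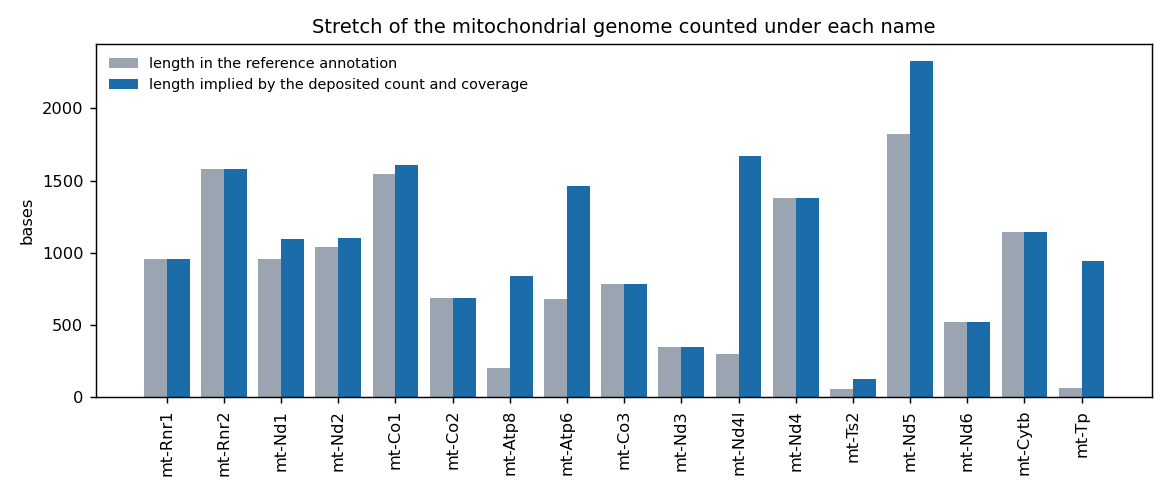
Length in bases of the annotated gene (grey) and of the stretch implied by the deposited count and coverage (blue), for the protein genes, the rRNAs, mt-Tp and mt-Ts2. The implied length exceeds the annotated one for, among others, mt-Atp8, mt-Atp6, mt-Nd4l and mt-Tp, at 841, 1464, 1668 and 944 bases.

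Gene ends that overlap are shown because they tie these names together. The last 75 bases of each gene follow, in DNA letters and 5′ to 3′, from the GENCODE transcripts. Capitals mark the bases shared with the next gene: 43 with mt-Atp6, 7 with mt-Nd4 and 14 with mt-Nd6, which lies on the other strand.
mt-Atp8: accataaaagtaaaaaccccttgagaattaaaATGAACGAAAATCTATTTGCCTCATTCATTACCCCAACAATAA
mt-Nd4l: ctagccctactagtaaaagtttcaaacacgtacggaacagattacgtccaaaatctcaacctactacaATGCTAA
mt-Nd5: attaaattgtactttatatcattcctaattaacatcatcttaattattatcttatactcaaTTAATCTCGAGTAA

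The pair mt-Nd4l and mt-Nd4 showed how unevenly such a shared stretch was counted. The count under mt-Nd4, which encodes a core subunit of complex I, was 19 to 21 in all 6 db/+ brains and in db/db water replicate 1, and 901 to 9222 in the other 5 db/db brains. In liver it ran from 788 to 34671. The count under mt-Nd4l was 256489 to 411810 in brain. The log2 difference of mt-Nd4 between brain genotypes was 7.03 (SE 1.28, edgeR adjusted p = 0.119). Summed with mt-Nd4l and their nuclear copies, it was -0.18 (edgeR adjusted p = 0.193).

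Nuclear genes that are near-identical to mitochondrial ones also held counts. A search of the reference transcripts found 27 genes of the count files with at least 80% identity to a member, 7 of them at 99% or more. Identical over the aligned bases were Gm28437 (783 bases of mt-Co3), Gm28661 (681 of mt-Co2), Gm10925 (678 of mt-Atp6), Gm28439 (876 of mt-Nd4) and Gm10222 (294 of mt-Nd4l). Gm28438 and Gm29216 differed from mt-Nd3 and mt-Co1 by 1 base each. Of the summed count of mt-Co3 and its copy, the copy took 54.6% to 56.6% in brain and 56.3% to 61.7% in liver. For mt-Nd3 the copy took 50.3% to 52.3% over all libraries, and for mt-Co2 33.8% to 42.6%. For mt-Atp6 the split varied more, at 63.2% to 72.4% in brain and 27.2% to 60.9% in liver. The level of a single protein gene is uncertain where a copy exists, so each comparison was repeated on sums of neighbours and copies.

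The windows around the single differing base, in capitals, show how alike gene and copy are. Positions count from the first base of the mitochondrial gene: T3C in mt-Nd3 and A1066T in mt-Co1.
mt-Nd3: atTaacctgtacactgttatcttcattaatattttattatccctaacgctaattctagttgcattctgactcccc
Gm28438: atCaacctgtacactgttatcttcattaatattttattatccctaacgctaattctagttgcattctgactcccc
mt-Co1: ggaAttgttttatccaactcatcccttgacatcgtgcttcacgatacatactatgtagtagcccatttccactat
Gm29216: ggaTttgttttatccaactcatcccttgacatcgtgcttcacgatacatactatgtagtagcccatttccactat

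By class, liver gave more of its count to mitochondrial protein genes than brain in all but 1 library. The share of the library total in the 13 protein genes was 5.59% to 6.55% in the 12 brains. It was 9.19% to 11.6% in 11 livers and 5.29% in db/+ brazzein replicate 2. The share in the 2 rRNAs was 0.726% to 0.975% in brain, 0.578% to 1.29% in db/+ liver and 0.263% to 0.336% in db/db liver. Liver db/+ brazzein replicate 2 was the lowest liver for protein genes and the lowest db/+ liver for rRNAs and tRNAs. The share in the 22 tRNA names was 0.0622% to 0.0748% in brain and 0.0757% to 0.165% in liver. Most of it was the stretch under mt-Tp, which took 55.2% to 62.1% of that count in brain and 51.4% to 68.7% in liver. Without mt-Tp the tRNA share was 0.0312% to 0.0572% in db/+ and 0.0368% to 0.0609% in db/db livers. The log2 ratio of the mean liver shares, db/db over db/+, was -0.31 with mt-Tp and 0.09 without it. Of the count left without mt-Tp, the single name mt-Te held 40.8% to 65.0% in db/+ and 60.3% to 75.5% in db/db livers, and with mt-Tp and mt-Te both left out the ratio was -0.49. The sign of the class ratio thus turned on these 2 names, and the tRNAs are described singly. Protein genes took 10.1% ± 0.634 in db/db and 9.44% ± 2.18 in db/+ livers (SD, n = 6 each), with overlapping ranges.

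**Figure D2:**
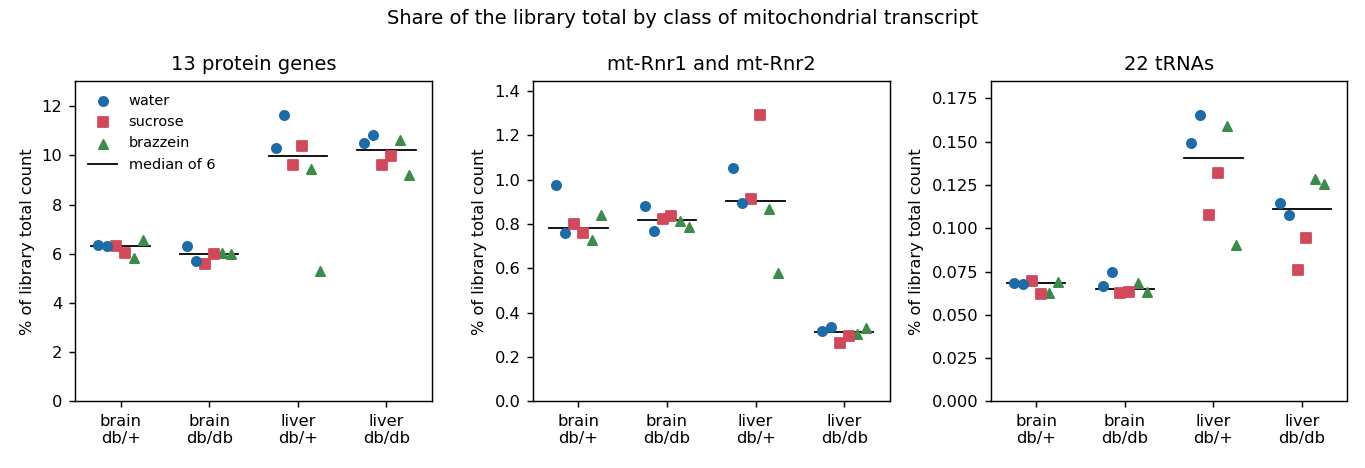
Share of the library total count (%) in the protein genes, rRNAs and tRNAs of the mitochondrial genome for 24 libraries, by tissue and genotype, coloured by drink, with the median of 6 as a line. In liver the rRNA share lies at 0.263% to 0.336% in db/db and at 0.578% or more in db/+, while the protein-gene shares overlap.

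The 2 ribosomal RNAs were lower in db/db than in db/+ liver in every library. These are the small (mt-Rnr1) and large (mt-Rnr2) subunit RNAs of the mitochondrial ribosome. In db/+ livers mt-Rnr1 was at 2513, 4100.1 and 6408 CPM in the lowest, median and highest library. In db/db livers the values were 1344, 1510.1 and 1606 CPM, so the genotypes did not overlap, and the log2 difference was -1.50 (SE 0.15). For mt-Rnr2 the db/+ values were 3407, 5881 and 6799 CPM and the db/db values 1000.1, 1526 and 1727 CPM, again without overlap (log2 -1.97, SE 0.13). As a share of the total, the rRNAs of db/db livers averaged 33.1% of the db/+ mean. Without any 1 library, the log2 ratio of the mean shares lay between -1.70 and -1.48. Per 100 protein-gene counts there were 7.67 to 12.4 rRNA counts in db/+ liver and 2.73 to 3.61 in db/db liver. This ratio uses the same rRNA counts, so it restates the difference relative to the mRNAs and is no separate support for it. The ratio of mt-Rnr1 to mt-Rnr2 was 0.930 to 1.34 in db/db livers and 0.668 to 0.942 in db/+ livers, where db/+ sucrose replicate 2 was the highest.

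The brain showed no such separation. There mt-Rnr1 was at 2576, 2799 and 3640.2 CPM (lowest, median, highest) in db/+ and 2437, 2846 and 3172 CPM in db/db. For mt-Rnr2 the values were 4718, 5087 and 6156 against 5087, 5252 and 5685 CPM. The ranges overlapped for both, with a log2 of -0.04 (SE 0.10, edgeR adjusted p = 0.911) for mt-Rnr1 and 0.02 (SE 0.06, edgeR adjusted p = 0.929) for mt-Rnr2. The difference of the genotype effect between tissues (liver minus brain) was -1.45 for mt-Rnr1 and -1.98 for mt-Rnr2 on the log2 scale, given as a description.

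**Figure D3:**
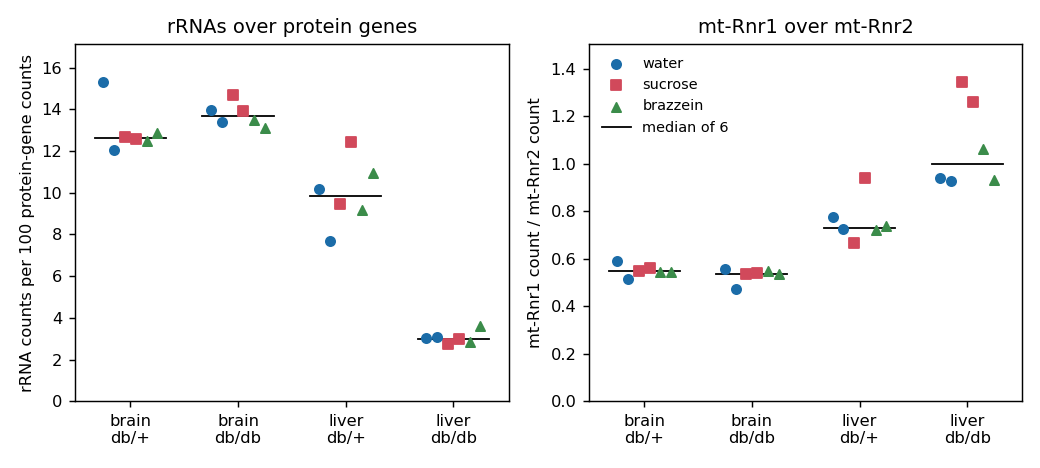
Counts of mt-Rnr1 and mt-Rnr2 per 100 counts of the mitochondrial protein genes (left), and mt-Rnr1 over mt-Rnr2 (right), for 24 libraries by tissue and genotype, coloured by drink, with the median of 6 as a line. The db/db livers lie at 2.73 to 3.61 on the left, below the 7.67 to 12.4 of db/+ livers.

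The 3′ ends of the rRNAs are shown since these RNAs carry the difference and the libraries were selected for A tails. The last 60 bases of each gene follow, with runs of 4 or more A in capitals. Over the whole gene, mt-Rnr2 holds 4 runs of 6 or more A and mt-Rnr1 holds 0. Such runs also occur in mt-Nd2 (3), mt-Nd4 and mt-Nd5 (2 each), and mt-Co1, mt-Nd1, mt-Th and mt-Tr (1 each). The part of these runs in the difference was not tested.
mt-Rnr1: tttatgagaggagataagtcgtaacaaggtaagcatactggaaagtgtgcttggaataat
mt-Rnr2: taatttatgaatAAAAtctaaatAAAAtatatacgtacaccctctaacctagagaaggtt

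With TMM scaling and all libraries, the protein genes did not pass the test between liver genotypes. EdgeR called 0 of 13 (0 with an unadjusted p under 0.05), and DESeq2 called 0. Over all 19352 genes tested edgeR called 15.2%, 1531 (7.91%) higher and 1406 lower, and DESeq2 called 25.1%. With raw library totals in place of TMM that split was 2319 higher and 880 lower, and the median log2 of all genes moved from -0.03 to 0.13. With raw totals mt-Nd5 was called higher in db/db (log2 0.48, SE 0.13, edgeR adjusted p = 0.0408). It also passed without db/+ brazzein replicate 1 (log2 0.47, SE 0.10, edgeR adjusted p = 0.0274). Without db/+ brazzein replicate 2, mt-Nd2 was called lower (log2 -0.47, SE 0.09, edgeR adjusted p = 0.0171). The median log2 of the protein genes was -0.05. The catalytic subunit of complex IV, mt-Co1, was at 17300.5, 27431 and 32801 CPM (lowest, median, highest) in db/+ and 21140.4, 24434 and 30836 CPM in db/db livers, with overlapping ranges (log2 -0.07, SE 0.12). The other complex IV subunits, mt-Co2 and mt-Co3, had log2 differences of -0.05 (SE 0.13) and 0.12 (SE 0.20).

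Of the other complexes, the complex III subunit mt-Cytb had a log2 difference of -0.05 (SE 0.19). The ATP synthase names mt-Atp6 and mt-Atp8 had -0.38 (SE 0.18) and -0.01 (SE 0.21). Among complex I subunits, mt-Nd1 had 0.02 (SE 0.18), mt-Nd2 -0.32 (SE 0.21), mt-Nd3 -0.30 (SE 0.19), mt-Nd4l -0.06 (SE 0.26) and mt-Nd5 0.31 (SE 0.14). The highest value belonged to mt-Nd6, the complex I subunit annotated on the minus strand (log2 0.42 with an SE of 0.19, adjusted p = 0.179 by edgeR). Its libraries spanned 80.9 to 245 CPM in db/+ and 67.0 to 380.4 CPM in db/db, so the genotypes overlapped. Summed with mt-Nd5, within whose counted stretch it lies, the value was smaller (log2 0.32, SE 0.14, edgeR adjusted p = 0.154). That sum is mostly mt-Nd5 counts, so it cannot show whether mt-Nd6 itself differed. On sums of neighbours and copies, none of the protein genes was called either.

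Of the 19 tRNAs tested, mt-Tf passed the count filter only through db/+ livers and is given as counts without a test. Among the other 18, 7 were lower in db/db liver and 0 were higher, with 10 at an unadjusted p under 0.05. The 7 include mt-Tp with its longer stretch. Over all genes 7.27% were called lower by adjusted p, and no share of all genes is given for the unadjusted count. Most tRNAs as counted here are stretches no longer than 1 read. The kit does not record strand, so RNA of either strand, precursors included, enters their counts. Adjacent tRNAs between mt-Nd2 and mt-Co1, all annotated on the minus strand, gave 4 of the 7: mt-Ta, mt-Tn, mt-Tc and mt-Ty. Their sequences are shown with those of the other 3 and of mt-Tf, 5′ to 3′ in DNA letters with the anticodon in capitals. For mt-Tp only the annotated tRNA is shown, 67 of the 944 bases counted under that name.
mt-Ta: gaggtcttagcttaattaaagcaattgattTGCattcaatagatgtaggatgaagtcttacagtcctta
mt-Tn: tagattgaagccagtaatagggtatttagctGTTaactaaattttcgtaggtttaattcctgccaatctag
mt-Tc: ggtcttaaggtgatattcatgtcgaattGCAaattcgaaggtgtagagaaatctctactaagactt
mt-Ty: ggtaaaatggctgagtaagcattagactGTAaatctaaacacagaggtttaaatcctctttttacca
mt-Tf: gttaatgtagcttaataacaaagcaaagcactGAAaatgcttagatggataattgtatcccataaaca
mt-Tm: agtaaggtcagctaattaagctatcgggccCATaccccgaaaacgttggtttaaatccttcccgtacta
mt-Tr: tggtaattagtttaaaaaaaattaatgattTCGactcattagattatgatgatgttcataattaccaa
mt-Tp: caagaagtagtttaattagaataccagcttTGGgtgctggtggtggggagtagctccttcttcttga

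The tyrosine tRNA mt-Ty was at 19.6, 29.8 and 31.2 CPM (lowest, median, highest) in db/+ and 7.28, 13.6 and 18.8 CPM in db/db livers, with no overlap (log2 -1.12 with an SE of 0.14, adjusted p = 0.00308 by edgeR). The cysteine tRNA mt-Tc was at 30.3, 46.9 and 48.5 against 11.2, 23.6 and 32.2 CPM (log2 -1.06 with an SE of 0.16, adjusted p = 0.00543 by edgeR). The asparagine tRNA mt-Tn was at 31.1, 43.997 and 49.1 against 12.5, 25.6 and 33.7 CPM (log2 -0.90 with an SE of 0.16, adjusted p = 0.0107 by edgeR). For mt-Tc and mt-Tn the ranges overlapped through db/+ sucrose replicate 2, the lowest db/+ library for both. These 3 calls held under all 18 alternative settings tried. The alanine tRNA mt-Ta was at 17.2, 23.2 and 26.9 against 7.92, 15.7 and 20.96 CPM (log2 -0.61 with an SE of 0.17, adjusted p = 0.0481 by edgeR), with overlapping ranges, and lost its call in 15 of the 18.

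The other 3 called tRNAs lay elsewhere in the genome. The methionine tRNA mt-Tm was at 5.46, 8.94 and 11.4 against 3.10, 5.36 and 7.93 CPM (log2 -0.77 with an SE of 0.17, adjusted p = 0.0226 by edgeR). The arginine tRNA mt-Tr held 25 to 62 counts against 14 to 34 (log2 -1.16 with an SE of 0.26, adjusted p = 0.0228 by edgeR). The stretch under mt-Tp, the proline tRNA with the 944 bases given above, was at 603, 931 and 1247 against 347, 594 and 723 CPM (log2 -0.77 with an SE of 0.17, adjusted p = 0.0214 by edgeR). The ranges of these 3 overlapped between genotypes. The calls of mt-Tm, mt-Tp and mt-Tr were lost in 7, 8 and 6 settings, each a single left-out library. With db/+ sucrose replicate 2, db/db sucrose replicate 2 or either db/db water library left out, only mt-Tc, mt-Tn and mt-Ty were called. The phenylalanine tRNA mt-Tf, next to mt-Rnr1, held 3 to 15 counts per db/+ and 2 to 4 per db/db liver, and 0 of the 6 db/db livers reached the minimum of the filter (0.148 CPM), against 4 of the 6 db/+ livers.

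Of the tested tRNAs that were not called, the glutamate tRNA mt-Te was at 130.2, 289.7 and 409 CPM in db/+ and 248, 318 and 459.6 CPM in db/db livers, with overlap (log2 0.26, SE 0.23). Without db/+ brazzein replicate 1 it was called higher (log2 0.56, SE 0.14, edgeR adjusted p = 0.0445). The valine tRNA mt-Tv, between the rRNA genes, had a log2 of -0.95 (SE 0.32, edgeR adjusted p = 0.0813). The threonine and aspartate tRNAs, mt-Tt and mt-Td, had -0.77 (SE 0.24) and -0.82 (SE 0.28), and DESeq2 called these 3 lower. A leucine tRNA that follows mt-Rnr2, mt-Tl1, had -0.30 (SE 0.27). The log2 differences of mt-Tg, mt-Th, mt-Tk and mt-Ts2 ran from -0.43 to -0.15. The names mt-Tl2 and mt-Ts1, at 1 to 59 and 1 to 112 counts in liver, had SEs of 1.29 and 1.04. The tRNAs mt-Ti, mt-Tq and mt-Tw were listed at 0 or 1 count in every library and were not tested.

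**Figure D4:**
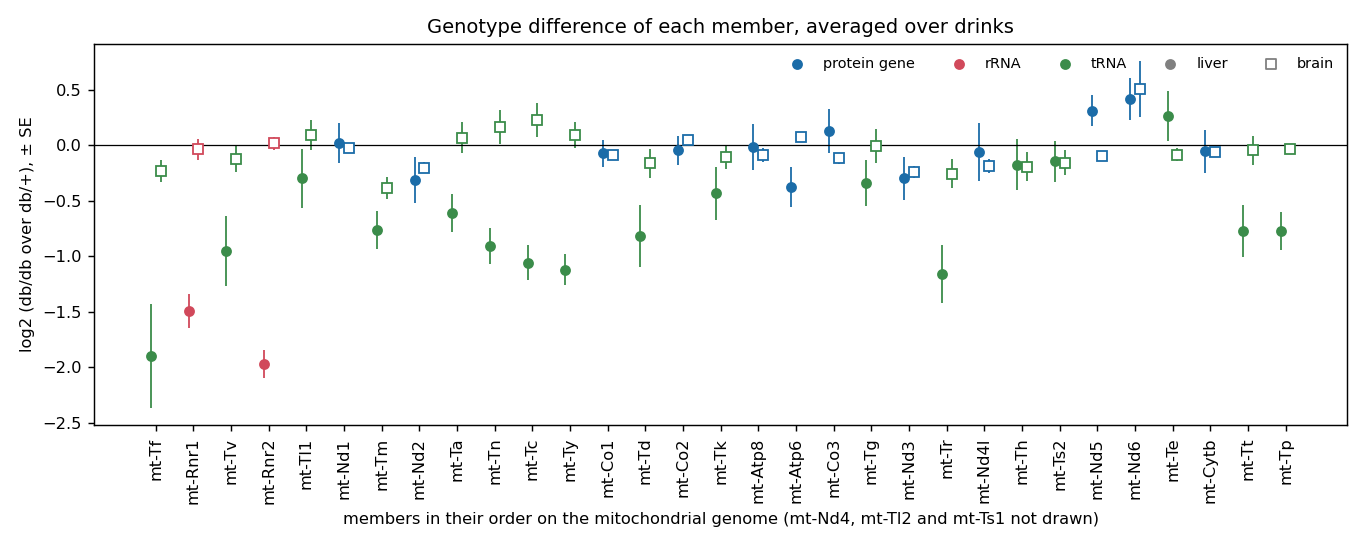
Log2 difference between db/db and db/+ with its SE for tested members in liver and brain, by class. In liver the rRNAs lie at -1.50 and -1.97 and mt-Ta, mt-Tn, mt-Tc and mt-Ty between -0.61 and -1.12, while the protein genes shown lie between -0.38 and 0.42.

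Most erythroid markers were called higher in the same db/db livers. The summed level of 5 erythroid genes was 659 to 1214 CPM in db/+ and 1101 to 3707 CPM in db/db, with overlapping ranges. Of these 5 genes 4 were called higher, where 7.91% of all genes were. For 5 macrophage and Kupffer cell genes it was 41.5 to 145 against 67.0 to 126 CPM, with overlapping ranges and 1 gene called higher. For 7 hepatocyte genes it was 79425 to 104196 against 76381 to 105376 CPM, with 1 lower. For 3 endothelial genes it was 18.2 to 40.9 against 29.01 to 58.3 CPM, with 0 called. Of the 2 brown fat genes, Ucp1 was under 1 CPM in every liver, and the sum of Ucp1 and Cidea was at most 0.430 CPM in db/+ and 70.8 to 199.6 CPM in db/db. That sum in db/db is thus the level of Cidea and is not read as brown fat cells. The part of cell composition in the rRNA and tRNA results was not tested.

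In brain, edgeR called 0 of 32 tested members between the genotypes, 8 with an unadjusted p under 0.05. Over all genes it called 0.00846% by adjusted p, and no share of all genes is given for the unadjusted count. DESeq2 called 4 members (mt-Nd2, mt-Nd3, mt-Nd4 and mt-Tm) and 4.31% of all genes to which it gave an adjusted p. The complex I subunit gene mt-Nd3 was at 347, 395 and 415 CPM (lowest, median, highest) in db/+ and 293, 330.3 and 358 CPM in db/db brains (log2 -0.24 with an SE of 0.05, adjusted p = 0.152 by edgeR, DESeq2 adjusted p = 0.0199). The ranges overlapped, with the db/db median below the lowest db/+ value. For mt-Nd2 the values were 3167, 3490.1 and 3709.97 against 2795, 2978 and 3328 CPM (log2 -0.20 with an SE of 0.05, adjusted p = 0.164 by edgeR). For mt-Tm they were 8.91, 10.6 and 11.49 against 6.41, 8.58 and 8.90 CPM, without overlap by a small margin (log2 -0.39 with an SE of 0.10, adjusted p = 0.178 by edgeR). The hepatocyte list, which includes Ttr, a gene of the choroid plexus, summed to 714 to 1009.9 CPM in db/+ and 1078 to 1250.3 in db/db brains, with 0 genes called, and its part in these values was not tested.

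The difference of the genotype effect between liver and brain passed for 5 tRNAs besides mt-Tf, all on the lower side, where 4.34% of all 25725 genes were called (5.41% on the higher side, 9.75% in all). The log2 difference in liver minus that in brain was -1.21 for mt-Ty (SE 0.19, edgeR adjusted p = 0.00124), -1.27 for mt-Tc (SE 0.23, adjusted p = 0.00350) and -1.06 for mt-Tn (SE 0.24, adjusted p = 0.0114). It was -0.73 for mt-Tp and -0.90 for mt-Tr, with edgeR adjusted p of 0.0221 and 0.0494. The value of mt-Tf, -1.67, rested on the liver counts given above. In brain mt-Tc was at 20.3, 23.4 and 27.7 CPM in db/+ and 22.4, 25.95 and 42.8 CPM in db/db, so the ranges overlapped there. The call of mt-Tr was lost in 22 of 30 alternatives. Of the protein genes, mt-Nd4 alone was called (log2 -7.02, SE 1.35), and on the sum with mt-Nd4l and copies the value was 0.13 (edgeR adjusted p = 0.980).

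In db/+ mice most members were higher in liver than in brain relative to the other genes. EdgeR called 30 of 34, with 29 higher and 1 lower (mt-Tf), where 79.6% of all genes were called. By direction, 32.3% of all genes were called higher and 47.3% lower. The 29 include mt-Ts1, at 1 to 51 counts in db/+ livers and 1 to 7 in db/+ brains. It passed the count filter only through livers, with 0 brain libraries at the minimum, so its call is not counted as a result. Without mt-Tf, mt-Tl2 and mt-Ts1, which fell short of the minimum in liver groups, 13 of 16 tRNAs were higher and 0 lower. This comparison depends on scaling. With raw totals in place of TMM factors the median log2 of all genes moved from -0.61 to -1.65 and that of the members from 1.61 to 0.56. With raw totals 22 members were called higher and 5 lower. The shares of all genes above are for TMM, and none is given for raw totals, so these 2 counts are not read as a result about the members. With raw totals mt-Nd5, mt-Rnr2, mt-Tk and mt-Tm changed sign, to -0.09, -0.01, -0.26 and -0.32. The name mt-Atp6 stood at 1401 to 1557 CPM of the raw total in db/+ brains and 2735 to 6091 in db/+ livers, without overlap (log2 2.65 with TMM, SE 0.15, edgeR adjusted p = 4.7e-10, and 1.59 with raw totals). Its copy took a larger part of the pair in brain, and summed over mt-Atp8, mt-Atp6, mt-Co3 and copies the share of the total was 1.51% to 1.75% in db/+ brains and 1.38% to 3.55% in db/+ livers, with overlap through brazzein replicate 2 of liver (with TMM log2 1.77, SE 0.15, edgeR adjusted p = 7.3e-08). For mt-Co1 the log2 was 1.24 with TMM and 0.19 with raw totals, and for mt-Nd2 2.47 and 1.41. The minus-strand gene mt-Nd6 was at 23.2 to 63.2 CPM of the raw total in brain and 75.03 to 239 in liver (log2 3.11 with TMM and 2.06 with raw totals). Summed with mt-Nd5, which holds most of the counts of the sum, the log2 with TMM was 0.99 (SE 0.11).

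The phenylalanine tRNA went the other way under both scalings. It was at 1.501 to 1.79 CPM of the raw total in db/+ brains and 0.0478 to 0.199 in db/+ livers, with no overlap (log2 -2.36 with TMM and -3.41 with raw totals). The 6 db/+ brains held 99 to 126 counts of it, and 4 of the 6 db/+ livers reached the filter's minimum. For mt-Td, mt-Tr and mt-Tv the log2 was -0.38, -0.23 and -0.12 under TMM, where none of these 3 was called, and -1.43, -1.28 and -1.18 with raw totals, where all 3 were.

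Levels per length put the same genes at the top in both tissues. On the FPKM scale, which divides by the counted stretch, mt-Co1 had the highest median of the members in each tissue and genotype. It stood at 8656 to 9809.5 FPKM in db/+ brains and 7492 to 12903 in db/+ livers. Next were mt-Cytb and mt-Co2, with medians of 4289 and 3702 FPKM in db/+ brains and 8550.3 and 7359.9 in db/+ livers, where their ranges overlapped. Of the rRNAs, mt-Rnr1 had 1819.8 to 2619.5 FPKM and mt-Rnr2 2012 to 2674 in db/+ brains, ranges that overlap. In db/db livers they had 1122 to 1237 and 504 to 789 FPKM, which do not overlap. The gene mt-Nd6 was lower, at a median of 46.8 FPKM in db/+ brains. The glutamate tRNA mt-Te, also annotated on the minus strand, had medians of 1279 FPKM in db/+ brains and 2859.9 in db/+ livers, the highest of the tRNAs. Because copies share counts with several protein genes, the place of these in the order is uncertain.

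Between drinks edgeR called 0 members in each of the 14 comparisons. In liver, averaged over genotypes, 7 had an unadjusted p under 0.05 for sucrose against water, 3 for brazzein against water and 9 for brazzein against sucrose, and DESeq2 called 1, 0 and 5. Over all genes edgeR called 0.0155%, 0.0723% and 0.145%, and DESeq2 1.04%, 2.72% and 6.57%. These shares are at adjusted p under 0.05. No share of all genes is given at an unadjusted p, so the unadjusted counts are not read as a result about the members. Within db/db livers the unadjusted counts were 7, 2 and 12, DESeq2 called 0, 1 and 6, and edgeR called 0.00517%, 0.119% and 0.16% of all genes. DESeq2 called 0.444%, 3.19% and 7.26% of all genes there. Set against sucrose, brazzein in db/db livers gave a log2 above 0 for 31 of 34 members with TMM scaling. Their median was 0.65, against -0.03 for all genes. The TMM factors of both db/db sucrose livers were above those of both db/db brazzein livers. Relative to raw totals, this raises the log2 of every member. The count above 0 is given for TMM only and without a share of all genes, so it is not read as a result about the members. The 34 include mt-Tl2, which passed the count filter only through brazzein livers, and mt-Ts1. Nothing is drawn from either. In db/db livers mt-Tl2 held 1 and 59 counts on brazzein and 1 in each other library. There mt-Ts1 held 112 and 32 on brazzein and 14 and 1 on sucrose. The DESeq2 call for brazzein against water within db/db was mt-Ts1. Averaged over genotypes, mt-Tl2 was among the 5 for brazzein against sucrose. For brazzein against sucrose in db/db livers DESeq2 called mt-Nd4, mt-Nd6, mt-Tc, mt-Tn and mt-Ty higher on brazzein and mt-Tm lower. For the sum of mt-Nd4 with mt-Nd4l and copies the direction was the opposite (log2 -0.17, SE 0.36, edgeR adjusted p = 0.895).

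In db/db livers the complex I gene mt-Nd6 was at 380.4 and 315 CPM on brazzein, 67.0 and 139 on sucrose and 283 and 234 on water. Both sucrose libraries were below the other 4 (brazzein against sucrose log2 1.76 with an SE of 0.34, adjusted p = 0.0872 by edgeR, DESeq2 adjusted p = 0.000533). In db/+ livers mt-Nd6 was at 197 and 245 CPM on brazzein, 80.9 and 119 on sucrose and 182 and 171 on water, and the sucrose libraries were again the lowest. The gene lies within the stretch counted under mt-Nd5. For the sum of both names in db/db livers the log2 was 0.09 (SE 0.23, edgeR adjusted p = 0.930). In these livers mt-Nd6 held 5257 to 28899 counts and mt-Nd5 436937 to 672050. The sum thus follows mt-Nd5 and cannot show whether mt-Nd6 itself differed.

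For the cysteine tRNA mt-Tc the db/db livers held 26.9 and 29.9 CPM on brazzein, 11.2 and 13.4 on sucrose and 20.3 and 32.2 on water, with both sucrose libraries lowest (brazzein against sucrose log2 1.21 with an SE of 0.27, adjusted p = 0.115 by edgeR). In db/+ livers they held 47.8 and 48.1, 45.9 and 30.3 and 48.5 and 41.97 CPM on the same drinks, with sucrose replicate 2 lowest. For the tyrosine tRNA mt-Ty the db/db values were 14.8 and 17.1 CPM on brazzein, 7.28 and 8.93 on sucrose and 12.4 and 18.8 on water (log2 0.98 with an SE of 0.24, adjusted p = 0.141 by edgeR). The same pair of db/db sucrose libraries was lowest among db/db livers for mt-Ta, mt-Tn, mt-Tp and mt-Rnr2, also as a share of the raw total. For mt-Rnr1 they were lowest with TMM scaling, whereas sucrose replicate 2 was the highest db/db liver as a share of the raw total.

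The large rRNA mt-Rnr2 was at 1509 and 1683 CPM on brazzein, 1000.1 and 1105 on sucrose and 1543 and 1727 on water in db/db livers (brazzein against sucrose log2 0.60 with an SE of 0.21, adjusted p = 0.249 by edgeR). The small rRNA mt-Rnr1 was at 1604 and 1569, 1344 and 1393, and 1451 and 1606 CPM (log2 0.21 with an SE of 0.26, adjusted p = 0.788 by edgeR). The highest db/db value of either rRNA stayed below its lowest db/+ value. The complex IV gene mt-Co1 was at 27032 and 21140.4, 22812 and 23095, and 25773 and 30836 CPM, with no order between brazzein and sucrose (log2 0.07, SE 0.21). The test of whether the brazzein against sucrose difference depended on genotype gave 0 members by edgeR in liver, 7 with an unadjusted p under 0.05 and 0 by DESeq2, where edgeR called 0.0672% and DESeq2 2.51% of all genes.

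**Figure D5:**
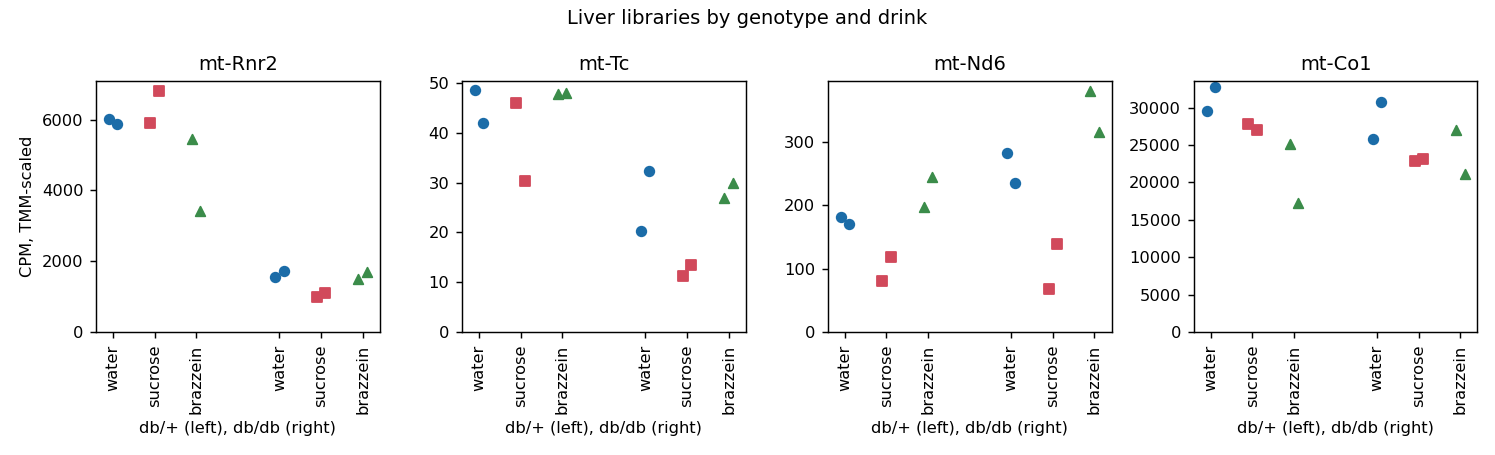
TMM-scaled CPM of mt-Rnr2, mt-Tc, mt-Nd6 and mt-Co1 in the 12 liver libraries, by genotype and drink (2 libraries each). Within db/db the sucrose libraries are lowest for mt-Rnr2 (1000.1 and 1105), mt-Tc (11.2 and 13.4) and mt-Nd6 (67.0 and 139), and not for mt-Co1.

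In brain, 0 to 2 of 32 members had an unadjusted p under 0.05 in the 7 drink comparisons, and DESeq2 called 0. Over all genes edgeR called 0% in 6 of these and 0.00846% in the remaining one, brazzein against sucrose within db/db. For sucrose against water, brazzein against water and brazzein against sucrose, DESeq2 called 0.321%, 0.245% and 0.292% of all genes averaged over genotypes and 0.66%, 0.472% and 0.524% within db/db. It called 0.368% for the dependence of the last on genotype. In db/db brains mt-Tc was at 25.1 and 24.4 CPM on brazzein, 27.1 and 26.8 on sucrose and 22.4 and 42.8 on water, so that water replicate 2 set the top of the range.

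The nuclear genes that serve the mitochondrial genome were counted from lists, and changed members are those that passed edgeR between liver genotypes. Their counts stand beside 7.91% of all genes called higher and 7.27% called lower, and a share near these is not a result about a list. Of 18 genes of mtDNA replication and maintenance 1 was higher, Slc25a4, an ADP/ATP carrier (log2 0.68 ± 0.19 SE), and 1 lower, Dna2, a nuclease and helicase (log2 -0.88 ± 0.14 SE). Of 12 transcription genes 1 was lower, Mterf4 (log2 -0.47 ± 0.12 SE), and of 24 genes of RNA processing 0 were called. Of 26 rRNA and tRNA modification genes 2 were higher and 2 lower. Trub2, a pseudouridine synthase, rose, with means of 10.47 ± 1.00 CPM in db/+ and 19.7 ± 2.35 CPM in db/db (± SD over 6 libraries, log2 0.91 ± 0.11 SE, edgeR adjusted p = 0.00273). Mettl17, a protein of small-subunit assembly, fell, with means of 13.9 ± 2.73 and 7.81 ± 1.76 CPM (± SD over 6 libraries, log2 -0.84 ± 0.20 SE, edgeR adjusted p = 0.0298). Trmt5, a tRNA methyltransferase, spanned 0.0168 to 5.38 CPM in db/+ and 2.80 to 5.80 in db/db, with overlapping ranges and means of 1.93 ± 2.65 and 4.63 ± 1.05 (± SD over 6 libraries). Its fitted log2 of 2.96 ± 0.81 SE was larger than the ratio of these means. Ngrn had a log2 difference of -0.41 ± 0.11 SE.

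Of the mitochondrial ribosome, 1 of 49 large-subunit genes was higher and 5 lower, among them Mrpl16 (log2 0.50 ± 0.09 SE), Mrpl14 (-0.56 ± 0.09 SE) and Mrpl24 (-0.53 ± 0.09 SE). Of 30 small-subunit genes 1 was lower, Mrps35 (log2 -0.39 ± 0.09 SE). Of 28 translation factors and tRNA synthetases 2 were higher, the elongation factor Gfm1 (log2 0.74 ± 0.13 SE) and the isoleucine tRNA synthetase Iars2 (0.48 ± 0.10 SE), and 1 was lower, Mtrf1l (-0.55 ± 0.14 SE). Of the nuclear subunits of complexes I, III, IV and V, 1 of 35, 1 of 9, 0 of 11 and 0 of 17 were higher, and 2, 1, 0 and 2 were lower. Ndufa10 and Uqcrc2 were higher (log2 0.31 ± 0.07 SE and 0.32 ± 0.07 SE). Ndufs7, Ndufb10, Uqcrh, Atp5o and Atp5h were lower (log2 -0.60 ± 0.06 SE, -0.35 ± 0.08 SE, -0.27 ± 0.07 SE, -0.29 ± 0.06 SE and -0.32 ± 0.08 SE). Of 14 regulators of mitochondrial biogenesis 0 were called, with a median log2 of -0.15. The medians of the other lists lay between -0.10 and 0.07, with -0.03 for all genes.

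With all libraries, core factors of mitochondrial transcription and RNA stability did not pass in liver. Tfam, which packages the genome and takes part in starting transcription, averaged 44.9 ± 7.34 CPM in db/+ and 52.8 ± 5.92 in db/db (± SD over 6 libraries, log2 0.23 ± 0.12 SE, edgeR adjusted p = 0.215). The polymerase Polrmt had a log2 of -0.09 ± 0.18 SE and the elongation factor Tefm -0.08 ± 0.23 SE. Lrpprc and Slirp, partners that stabilise mitochondrial mRNAs, had -0.22 ± 0.79 SE and -0.14 ± 0.14 SE, and the poly(A) polymerase Mtpap -0.05 ± 0.13 SE. The helicase Twnk and the DNA polymerase Polg had -0.25 ± 0.11 SE and -0.81 ± 0.43 SE. Liver db/db brazzein replicate 2 decided the values of Lrpprc and Polg. It held Lrpprc at 0.557 CPM, against 76.6 to 88.7 in the other 5 db/db livers, and without it the log2 of Lrpprc was 0.12 with an SE of 0.17 and an edgeR adjusted p = 0.697. It held Polg at 3.18 CPM, against 25.1 to 33.5, and without it Polg was called lower, with a log2 of -0.51 with an SE of 0.12 and an edgeR adjusted p = 0.0396. Without db/db brazzein replicate 1, which leaves that library alone in its group, both were called lower, with a log2 of -2.25 with an SE of 0.20 and an edgeR adjusted p = 0.00160 for Lrpprc and -1.55 with an SE of 0.13 and an edgeR adjusted p = 0.00127 for Polg. Ppargc1a, a coactivator of mitochondrial genes, was at 0.208 ± 0.211 CPM in db/+ and 5.67 ± 8.53 in db/db livers (± SD over 6 libraries, log2 1.99 ± 0.87 SE, edgeR adjusted p = 0.163). Its db/db level lay in the sucrose livers, at 16.3 and 17.1 CPM, while the other 4 db/db livers held at most 0.406 CPM. Within db/db, edgeR's adjusted p was 0.138 for brazzein against sucrose. Without db/db brazzein replicate 2, at 0.205 CPM, the genotype log2 of Ppargc1a was 0.06. That fit left brazzein replicate 1, at 0 CPM, alone in its group. None of these 9 was called in brain, where their log2 differences ran from -0.85 for Ppargc1a to 0.25 for Tefm, and no gene of the lists was called there. In the drink comparisons 0 genes of any list were called by edgeR, and the adjusted p of the 9 factors was 0.138 or higher.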

How the data were processed

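RNA of 12 brain and 12 liver libraries was measured by sequencing of poly(A)-selected RNA with a non-directional kit, per the labels' protocols. Each deposited file lists estimated counts per gene; the authors also deposited coverage and FPKM per gene, used for the length checks and for levels per length. The read conversion tool bcl2fastq and the build GRCm39 are named in the submitters' processing notes; the aligner, counter and annotation were each not given in the sources used here. Groups of 2 libraries followed the sample titles. For db/+ brazzein livers a file header names the other replicate, so their coverage was not used and their FPKM was used by group.

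Estimated counts were tested with edgeR 4.0.16 (quasi-likelihood, TMM factors, filterByExpr, Benjamini-Hochberg adjustment over all genes, threshold 0.05) in R 4.3.3. Each tissue had 1 fit of 6 groups, and comparisons of tissues 1 fit of 12 groups. In liver 34 members were tested and in brain 32. Copies were found with BLAST 2.17.0 against GENCODE M21 transcripts (GRCm38), and tables were made with Python 3.11.15. The scripts were tested on simulated data. Alternatives were DESeq2 1.42.0, other scalings, a fit without the low-count filter, a replicate block, leaving out each library and, chosen after seeing the data, sums of neighbours and copies and the tRNA share without mt-Tp or without mt-Tp and mt-Te. Shares of genes called by DESeq2 are over those given an adjusted p. All shares of genes called are at adjusted p under 0.05, and none is given for an unadjusted p. All members were described; of the listed nuclear genes, the text names a set of 9 core factors and, per list, at most 2 that passed in each direction, by smallest p. The members and lists were chosen with earlier results of these data known. Shares are of the total count of each library.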

Additional observations from a re-analysis of the deposited data

Results flagged for a closer look

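Among 16 sets of 6 libraries examined for a library far from the others, of which chance picks about 1 in 20, 2 were found. Liver db/+ brazzein replicate 2 held 5.29% of its count in mitochondrial protein genes, apart from the other 5 db/+ livers. Brain db/+ water replicate 1 had 15.3 rRNA counts per 100 protein-gene counts, apart from the other 5 db/+ brains.

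EdgeR's test of whether the genotype difference depended on tissue called 7 members, mt-Nd4 and mt-Tf among them. All 7 were on the lower side, where 4.34% of all genes were called (9.75% in either direction). On the log2 scale, liver minus brain was -7.02 for mt-Nd4, -1.27 for mt-Tc, -1.67 for mt-Tf, -1.06 for mt-Tn, -0.73 for mt-Tp, -0.90 for mt-Tr and -1.21 for mt-Ty. The value of mt-Nd4 rests on the brain counts of 19 to 21 in 7 libraries, and the sum with mt-Nd4l and copies gave 0.13. That of mt-Tf rests on 2 to 15 counts in liver. Neither is read as a difference between tissues, which leaves 5 tRNAs.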

How the results depend on the processing

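The number of members called between liver genotypes, rRNAs left out, was 8 with mt-Tf, and it was 3 to 10 when single libraries were left out; it was 3 without db/+ sucrose replicate 2, db/db sucrose replicate 2 or either db/db water library. Over all genes the call count of 2937 fell to 1407 without db/db sucrose replicate 2 and was 4848 by DESeq2. With the replicate block 6 members were called, and the block changed no other count of called members by more than 1.5 times. Within a tissue, libraries with the same replicate number did not deviate together. Correlations of their deviations were -0.0405 to 0.0404 in brain and -0.105 to 0.0921 in liver, with 0 of 15 pairs of groups over 0.1 in each tissue. Brain libraries were not set against liver libraries here, so this check cannot tell whether both tissues came from the same mouse. The fit of both tissues treats all 24 libraries as independent. DESeq2 called members where edgeR called 0. In liver averaged over genotypes these were 1 for sucrose against water and 5 for brazzein against sucrose, mt-Tl2 among them. Within db/db liver they were 1 for brazzein against water (mt-Ts1) and 6 for brazzein over sucrose, and between brain genotypes 4. Leaving out single libraries gave 0 to 1 for brazzein against sucrose in liver averaged over genotypes (mt-Nd6, without db/db sucrose replicate 2), 0 to 2 for its dependence on genotype (mt-Nd2 and mt-Rnr2, without db/+ brazzein replicate 1) and 0 to 1 between brain genotypes (without db/db water replicate 1). The log2 ratio of the mean tRNA share in liver was -0.31 from counts, 0.12 from FPKM, which weights by length, 0.088 without mt-Tp and -0.49 without mt-Tp and mt-Te; the last was 0.085 in brain. With raw totals the liver to brain log2 of mt-Nd5, mt-Rnr2, mt-Tk and mt-Tm turned to -0.092, -0.0057, -0.26 and -0.32. For mt-Nd4 the genotype log2 in liver minus that in brain turned from -7.02 to 0.13 on summed neighbours and copies. The cause of these changes was not tested. With 2 libraries per group, drink comparisons had the least precision.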
